A study of Mus musculus with 15 samples.

Results

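The genes described here were the matrix proteases and their inhibitors: the matrix metalloproteinases (Mmp), their tissue inhibitors (Timp), the ADAM proteases, the secreted ADAMTS proteases and the ADAMTS-like proteins (Adamtsl). Members were the protein-coding genes whose mouse symbol begins with one of these family names and a number and which had at least 10 counts in at least 3 of the 15 samples. Of 83 protein-coding genes with such a symbol, 51 were members (16 Mmp, 4 Timp, 15 Adam, 13 Adamts and 3 Adamtsl), out of 46603 genes in the files. The other 32 stayed under this level, and 11 of them had no count in any sample. The members took between 0.234% and 0.530% of the counts of a sample.

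Matrix metalloproteinases are zinc enzymes that cut collagens, elastin, laminin and proteoglycans, and most are secreted as inactive precursors that other proteases switch on. TIMPs bind the active enzymes and block them. ADAMs are membrane proteins, many of which shed growth factors and receptors from the cell surface, while ADAMTS proteases trim procollagens and cut proteoglycans such as versican. When fibroblast-like precursors turn into fat cells, a matrix rich in fibrillar collagen gives way to one of basement membrane type, and these enzymes and inhibitors are known for their part in that change.

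The cells were MEFs, mouse embryonic fibroblasts, from wild-type BALB/c embryos of 10.5 days, kept in DMEM with 10% FBS. MEFD0 was sampled before treatment at day 0, and MEFD3min and MEFD5min were untreated cells at day 3 and day 5. MEFD3plu had been for 3 days in the same medium with 1 µM dexamethasone (a glucocorticoid), 10 µM rosiglitazone (an agonist of the fat cell receptor Pparg), 10 µg/mL insulin and 0.5 mM IBMX (a phosphodiesterase inhibitor), and MEFD5plu had been returned to growth medium after those 3 days. Each of the 5 conditions had 3 samples, numbered 1, 3 and 4, with total counts from 24030558 to 37281126 per sample. The labels do not say whether the samples of a condition came from separate embryos or cultures, so p-values measure the spread between these samples, which may be technical. MEFs are a mixed culture, and in RNA from a whole culture fewer cells of a type and less RNA per cell cannot be told apart.

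Marker genes were checked first. The 8 fibroblast markers, among them the collagen genes Col1a1 and Col1a2, summed to 10370 to 18520 CPM (a count scaled to a library of fixed size, by the TMM method) in the samples of MEFD3min and MEFD5min, to 4594 to 5177 in MEFD3plu and to 8506 to 8900 in MEFD5plu. At day 3, 7 of the 8 were lower and Pdgfrb was higher in treated cells, whereas at day 5 Col1a1 and Col1a2 were lower, Pdgfra was higher and the other 5 did not pass the test. All 9 adipocyte markers, including Adipoq and Fabp4, were higher in treated cells at both days, and their sum was 42.9 to 78.6 CPM in the samples of the 3 conditions without treatment and 9652 to 13340 in the treated samples. Shares over all genes tested were 28.0% lower and 28.0% higher at day 3, and 24.2% lower and 26.3% higher at day 5. The part of the change in cell type in the results on the proteases was not tested.

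The promoters of the Mmp genes of the chromosome 9 cluster are shown before their values. Mmp13, Mmp12, Mmp1b, Mmp3, Mmp10 and Mmp8 lie on chromosome 9 (GRCm38), in this order, in a cluster that spans chr9:7272514-7699585 (427 kb). Of the genes counted in these data, 9 protein-coding ones lie in this span, all of them Mmp genes. The other 3, Mmp27, Mmp20 and Mmp7, had 12, 0 and 3 counts over all samples and were not members. The 110 bases before the RefSeq start of each member are given 5′ to 3′ on the strand of the gene, with the letters TGAGTCA or their reverse complement TGACTCA in capitals, the sequence known as the AP-1 site that Fos and Jun dimers bind. Mmp12 has a pair of RefSeq starts, and the one with the letters is shown.
Mmp13, chr9:7272404-7272513, plus strand: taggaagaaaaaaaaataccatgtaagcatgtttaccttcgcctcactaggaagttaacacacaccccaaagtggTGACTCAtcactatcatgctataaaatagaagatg
Mmp12, chr9:7347264-7347373, plus strand: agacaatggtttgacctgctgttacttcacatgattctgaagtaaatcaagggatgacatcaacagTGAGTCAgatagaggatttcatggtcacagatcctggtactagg
Mmp1b, chr9:7388027-7388136, minus strand: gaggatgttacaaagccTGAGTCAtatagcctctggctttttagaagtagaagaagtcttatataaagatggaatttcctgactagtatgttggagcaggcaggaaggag
Mmp3, chr9:7445712-7445821, plus strand: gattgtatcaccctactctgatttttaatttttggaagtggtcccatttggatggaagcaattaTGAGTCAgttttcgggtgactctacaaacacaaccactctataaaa
Mmp10, chr9:7502232-7502341, plus strand: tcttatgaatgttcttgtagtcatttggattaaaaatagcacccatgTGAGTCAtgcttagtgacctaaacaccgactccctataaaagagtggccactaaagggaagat
Mmp8, chr9:7558319-7558428, plus strand: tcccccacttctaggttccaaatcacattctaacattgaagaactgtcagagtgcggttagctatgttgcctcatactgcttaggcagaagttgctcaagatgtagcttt
The first base of the match lay 35 bases before the start in Mmp13, 44 in Mmp12, 46 in Mmp3, 63 in Mmp10 and 93 in Mmp1b, and the window of Mmp8 did not hold these letters. In windows from 250 bases before to 50 after the start, on both strands, the letters were found in 6 of the 32 members with a RefSeq window (18.8%), in 1607 of 27025 genes (5.95%) and in 547 of the 10987 genes that were also tested here (4.98%). The sixth member was Adam19, and the other 19 members had no window in the table used. The letters TGACGTCA of the cAMP response element were in 0 of the 32 members and in 2.03% of all genes, and those of a C/EBP site (TTGCNNAA) in 6 of the 32 (18.8%) and in 12.2% of all genes. Among the genes also tested here the shares were 3.47% and 10.3%. The 6 members with the C/EBP letters were Adam8, Adam15 and 4 of the 6 genes of the cluster, Mmp3, Mmp8, Mmp10 and Mmp12. These matches describe the sequence and do not show that a factor binds there.

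The comparison MEFD3plu/MEFD3min asks how the cells differed at the end of the treatment. In edgeR's quasi-likelihood fit, at a Benjamini-Hochberg adjusted p under 0.05 over 15997 genes, 25 of the 51 members were lower and 16 were higher in treated cells, and 10 did not pass. Of all genes tested, 28.0% were lower and 28.0% were higher at this threshold, and 56.1% passed in either direction. The change was at least 2-fold for 20 of the lower and 12 of the higher members, 32 of 51, against 23.8% of all genes. The median absolute log2 fold change was 1.38 over the members and 0.49 over all genes. In 42 members the values of treated and untreated samples did not overlap, where 56.8% of all genes tested did not. Some members reached the level of membership only through the samples in which they were high: Timp4 through the 6 treated samples, Adamts19 through the 3 of MEFD3plu and Mmp8 through the 3 of MEFD3min and 1 of MEFD5plu. Such genes had to differ, so their calls are no support. Adam22, which did not pass at day 3, also needed its treated samples. Without these 4 members, a count added after the values were seen, 24 of 47 were lower and 14 higher at day 3, and 11 were lower and 12 higher at day 5.

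The calls at day 3 were also counted by family. Of the 16 Mmp genes, 11 were lower at day 3 and 3 were higher (Mmp19, Mmp28 and Mmp17), with a median log2 fold change of -1.38. Of the 4 TIMPs, 3 were lower and Timp4 was higher. The 13 Adamts genes were split into 7 higher and 5 lower, the 15 Adam genes into 5 higher and 4 lower, and of the 3 Adamtsl genes 2 were lower. Over all genes tested, 28.0% were lower and 28.0% were higher at day 3. These counts include Mmp8, Timp4 and Adamts19, whose calls are no support, and no test of a family as a whole was made.

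In MEFD5plu/MEFD5min, after the return to growth medium, 14 members were higher, 11 were lower and 26 did not pass the same test, where 26.3% of all genes were higher, 24.2% were lower and 50.5% passed in either direction. The share of members that passed, 25 of 51, was close to that background. A change of at least 2-fold was found in 12 higher and 8 lower members, against 15.3% of all genes in either direction, and in 31 members the groups did not overlap, a share close to the 62.1% of all genes tested. By family, 4 Mmp genes were higher and 6 lower, Timp4 was higher and Timp2 lower, 5 Adamts genes were higher and 2 lower, 4 Adam genes were higher and 2 lower, and the 3 Adamtsl genes had edgeR adjusted p of 0.391 to 0.714. The higher genes include Mmp8 and Timp4, whose calls are no support. Scaled by total counts alone, the median of all genes shifted by -0.16 (log2), 37.0% instead of 52.1% of all genes that passed were higher, and 13 members were higher and 15 lower.

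Taking both days, 11 members were lower at each day: Mmp3, Mmp9, Mmp10, Mmp12, Mmp13, Mmp1b, Timp2, Adam8, Adam19, Adamts7 and Adamts14. A further 10 were higher at each day: Mmp19, Mmp28, Timp4, Adam12, Adam23, Adamts1, Adamts2, Adamts5, Adamts12 and Adamts15. Another 12 were lower and 6 higher at day 3 only, Adam17 and Mmp15 were higher at day 5 only, Mmp8 and Adam5 were lower at day 3 and higher at day 5, and 8 passed at neither day. Of all genes tested, 9.45% were lower and 12.4% higher at both days, 12.4% were lower and 10.3% higher at day 3 only, 7.68% were higher at day 5 only, 6.23% were lower at day 3 and higher at day 5, and 26.8% passed at neither day. The calls of Timp4 and Mmp8 are no support here either. In the test of the difference itself (the treatment by day interaction), the log2 fold change was lower at day 3 than at day 5 in 24 members and higher in 6. Among all genes, 25.8% were lower and 22.6% were higher in the interaction, and 48.5% passed in either direction. Scaled by total counts alone, the median of all genes shifted by 0.18 (log2) in the interaction, 59.5% instead of 46.7% of all genes that passed were higher, and 22 members were lower and 9 higher.

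**Figure D1:**
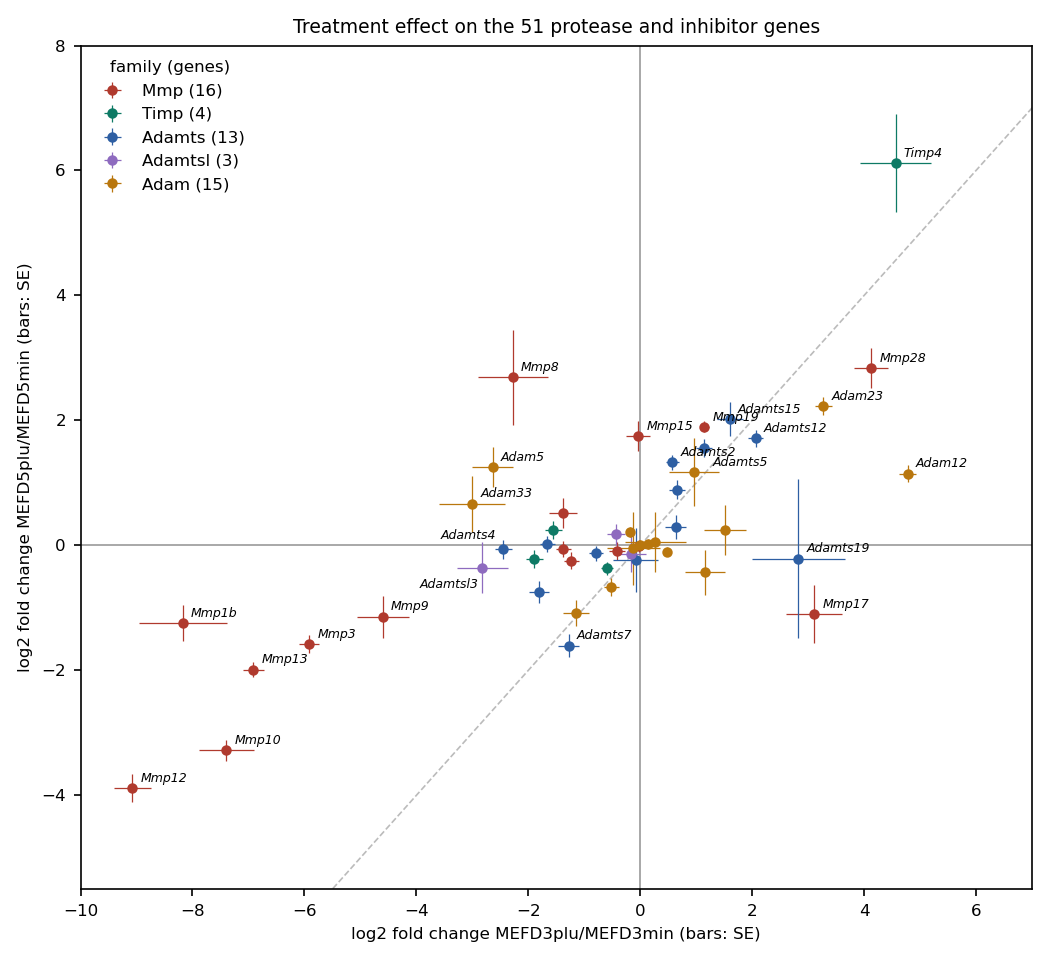
Each point is 1 of the 51 genes, with its log2 fold change between treated and untreated MEFs at day 3 (horizontal) and at day 5 (vertical), bars of 1 standard error and colours for the families. Mmp12, Mmp10, Mmp13 and Mmp3 lie far to the left, at -9.07 to -5.92 at day 3, and closer to 0 at day 5 than the dashed line of equal change; the position of Mmp1b, which had 0 counts in MEFD3plu, depends on the prior count of the fit.

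The stromelysins cut proteoglycans, laminin and fibronectin and activate other precursors. Mmp3, the best known of them, had the highest level per exon length of all members over the 15 samples. Its values were 83.5, 87.1 and 102 CPM in MEFD0, 729, 644 and 916 in MEFD3min and 10.3, 12.4 and 15.1 in MEFD3plu. At day 5 they were 1365, 1143 and 1462 CPM in MEFD5min and 412, 477 and 435 in MEFD5plu. All treated samples were below all untreated samples of the same day, and at day 3 they were also below MEFD0. The log2 fold change was -5.92 ± 0.18 (SE, n = 3 per group) at day 3, or 60.7-fold lower, with an edgeR adjusted p of 5.2e-14. At day 5 it was -1.58 ± 0.14, or 3.00-fold lower, with an edgeR adjusted p of 1.3e-07.

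Mmp10, a second stromelysin, was at its highest in untreated cells at day 5 and near 0 in treated cells at day 3. It had 1.78, 1.22 and 1.95 CPM in MEFD0 and 1.91, 2.30 and 2.93 in MEFD3min, and 36.9, 33.0 and 43.3 in MEFD5min. In untreated cells it was 1.44-fold higher at day 3 than at day 0, with overlapping samples (edgeR adjusted p = 0.0342), and 22.8-fold higher at day 5. The treated samples had a total of 1 count at day 3, in replicate 4, and 3.72, 3.93 and 3.98 CPM at day 5. At day 3 the 1 count against 230 gave a ratio of 229, with a 95% counting interval from 40.6 to 9070.5. At day 5 the gene was 9.73-fold lower in treated cells (log2 fold change -3.28 ± 0.17, edgeR adjusted p = 9.4e-11). Of the stretches of 50 bases in its exons, 8.37% also occur in Mmp3, so that some reads cannot be assigned to 1 of the pair. Mmp11, a stromelysin in name that is made active inside the cell by furin, had log2 fold changes of -0.01 ± 0.09 at both days and did not pass.

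Mmp12, the metalloelastase known from macrophages, had the largest fitted fold change at day 3. Its values were 0.103, 0.133 and 0.307 CPM in MEFD0, 63.9, 51.9 and 74.1 in MEFD3min and 0.0682, 0.157 and 0.113 in MEFD3plu. At day 5 they were 27.8, 21.9 and 36.4 CPM in untreated and 1.85, 1.52 and 2.47 in treated cells. The 3 treated samples at day 3 were thus at the level of MEFD0, and those at day 5 lay between MEFD0 and MEFD5min. The gene was 562-fold lower at day 3 (log2 fold change -9.07 ± 0.33, edgeR adjusted p = 4.4e-13) and 14.8-fold lower at day 5 (-3.88 ± 0.22, edgeR adjusted p = 3.4e-10).

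Since macrophages make this enzyme, their markers were measured in the same samples. The 9 macrophage markers summed to 11.4 to 13.2 CPM in MEFD0, 14.7 to 17.8 in MEFD3min, 7.49 to 9.31 in MEFD3plu, and at day 5 19.3 to 20.5 in MEFD5min against 14.5 to 16.4 in MEFD5plu. Adgre1 had 0 counts in every sample, Ptprc, Itgam and Fcgr1 were at most at a mean of 0.115 CPM in a condition, and the most abundant was Cd14 in MEFD0 and MEFD5min, Mrc1 in MEFD3min and Cd68 in MEFD3plu. Of the 5 that could be tested, 3 were lower at day 3 (Lyz2, Cd14 and Mrc1) and 2 at day 5 (Cd68 and Cd14). Over all genes tested, 28.0% were lower at day 3 and 24.2% at day 5. Mmp12 was 350-fold higher in MEFD3min than in MEFD0, and of the same 5 markers Cd68, Lyz2 and Mrc1 were also higher there (log2 fold changes 0.96, 2.77 and 2.66), while Cd14 and Csf1r were lower (-0.97 and -1.81). Whether macrophages had a part in the values of Mmp12 was not tested.

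The collagenases cut fibrillar collagen in its triple helix. Mmp13, the main interstitial collagenase of rodents, had 3.94, 3.69 and 3.02 CPM in MEFD0, 26.5, 23.7 and 29.6 in MEFD3min, 0.171, 0.219 and 0.254 in MEFD3plu, and at day 5 47.1, 39.4 and 49.8 in MEFD5min against 11.1, 11.0 and 12.4 in MEFD5plu. As for Mmp3, the samples of MEFD3plu were below those of all other conditions. The gene was 124-fold lower at day 3 (log2 fold change -6.91 ± 0.20, edgeR adjusted p = 2.4e-14) and 3.96-fold lower at day 5 (-1.99 ± 0.12, edgeR adjusted p = 6.7e-10). Mmp1b and Mmp8 were of too low a level for the rule on named genes and, like Mmp9 and Mmp17 below, are given here after their values were seen. Mmp1b, a rodent relative of interstitial collagenase, had 0 counts in all samples of MEFD3plu against 105 in MEFD3min, which makes it at least 34.8-fold lower (against a floor of 3 counts over the group), and it was 2.37-fold lower at day 5. Exons of Mmp12 on the other strand cover 10.8% of its exon bases, and 11.8% of its stretches of 50 bases also occur in Mmp1a. Mmp8, the neutrophil collagenase, was under 1 CPM in all samples and went from 84 to 17 counts with treatment at day 3 and from 7 to 47 at day 5. Its log2 fold change was -2.28 ± 0.62 at day 3 and 2.69 ± 0.75 at day 5, and 1 treated sample at day 5 (0.953 CPM) lay well above the other two (0.193 and 0.271).

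**Figure D2:**
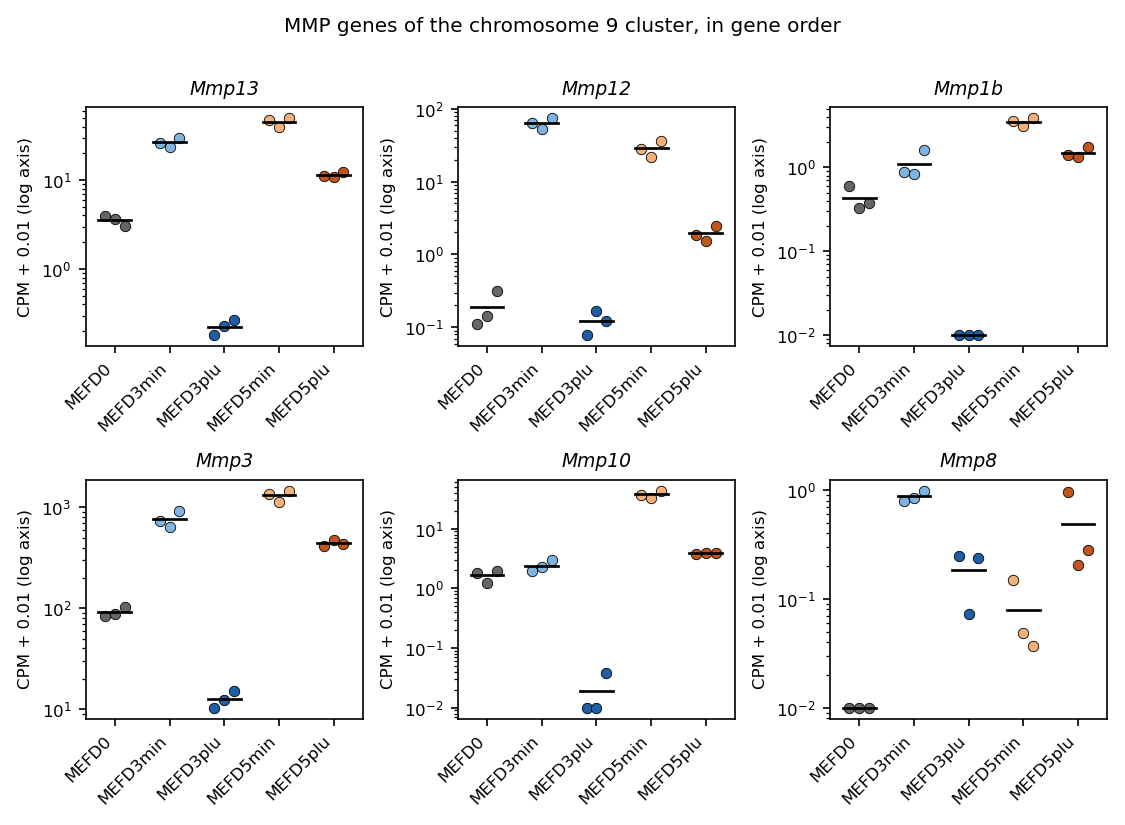
CPM plus 0.01 on a log axis for the 6 member genes of the chromosome 9 cluster, in gene order, with 1 point per sample and a bar at the mean of the 3 samples of each condition. MEFD3plu is the lowest condition in Mmp13, Mmp1b, Mmp3 and Mmp10 and lies at the level of MEFD0 in Mmp12, while Mmp8 has MEFD0 at 0 and MEFD5plu above MEFD5min.

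Mmp3, Mmp10, Mmp12, Mmp13 and Mmp1b were lower in treated cells at both days. Mmp8, a member mainly through its counts in MEFD3min, was lower at day 3 and higher at day 5. Of the 10 tested protein-coding genes within 1 Mb on either side of the cluster, 3 were lower and 4 higher at day 3, with log2 fold changes from -2.68 in Pdgfd, a growth factor gene, to 2.88 in Trpc6, a cation channel gene. Yap1, a transcriptional co-activator gene beyond the far end of the cluster, had a log2 fold change of 0.08 ± 0.09 at day 3, and Dync2h1, a dynein gene before Mmp13, one of 0.71 ± 0.09. Of all genes tested, 28.0% were lower and 28.0% were higher at day 3. At day 5 the neighbours Birc2, Birc3 and Cfap300 were higher, and Pdgfd and Yap1 were lower.

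The gelatinases cut denatured collagen and type IV collagen. Mmp9 had 2.88, 5.14 and 2.69 CPM in MEFD3min and 0.0682, 0.125 and 0.226 in MEFD3plu, 25.6-fold lower (log2 fold change -4.60 ± 0.46, edgeR adjusted p = 2.05e-07), and was 2.20-fold lower at day 5. Mmp2, the higher of the pair per length, had means of 24.3 CPM in MEFD3min and 18.3 in MEFD3plu, and its log2 fold change of -0.42 ± 0.14 (edgeR adjusted p = 0.0185) did not pass without replicate 3 of MEFD3min (-0.21, adjusted p = 0.149) or replicate 4 of MEFD3plu (-0.39, adjusted p = 0.0537). At day 5 Mmp2 did not pass.

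Among the membrane-anchored enzymes Mmp14, which cuts collagen at the cell surface and activates Mmp2 with the help of Timp2, was the most abundant per length. It had 248, 269 and 201 CPM in MEFD0, 855, 1165 and 939 in MEFD3min, 347, 406 and 388 in MEFD3plu, and at day 5 296, 246 and 261 in MEFD5min against 295, 229 and 249 in MEFD5plu. Untreated cells at day 3 stood above every other condition, and the day 5 conditions overlapped. Mmp14 was 2.59-fold lower with treatment at day 3 (log2 fold change -1.38 ± 0.13, edgeR adjusted p = 1.4e-07) and did not pass at day 5 (-0.05 ± 0.13). Mmp16, a relative with a similar role, was 2.35-fold lower at day 3, and Mmp15, of the same group, had a log2 fold change of -0.03 ± 0.21 at day 3 and was 3.40-fold higher at day 5 (1.75 ± 0.24, edgeR adjusted p = 1.3e-05). Mmp17, which is held by a lipid anchor, was higher at day 3 (3.11 ± 0.50) on 81 against 9 counts.

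Of the remaining Mmp genes, Mmp19 and Mmp28 were higher in treated cells at both days. Mmp19, a basement membrane protease, had 100.4, 105 and 108 CPM in MEFD3min and 231, 230.2 and 234 in MEFD3plu, then 58.6, 46.1 and 58.8 in MEFD5min and 205, 203 and 201 in MEFD5plu. The samples within a condition were close together, and the groups were far apart. The gene was 2.22-fold higher at day 3 and 3.73-fold higher at day 5 (log2 fold changes 1.15 ± 0.09 and 1.90 ± 0.09, edgeR adjusted p = 4.3e-09 and 2.0e-11). Annotated exons of genes on the other strand cover 28.3% of its exon bases, and the strand setting of the counting is not given in the sources used here. The study's methods name a stranded library kit and the labels one that does not mark strand. The overlap may therefore have changed the counts of Mmp19, Mmp28, Timp3 and Mmp1b, in a direction not known here. The same holds for Adam15, Adamts9, Adam1a, Adam19 and Mmp11, with 20.6%, 11.99%, 11.3%, 10.1% and 5.58% of their exon bases covered. Mmp28, also called epilysin, fell from a mean of 3.55 CPM in MEFD0 to 0.467 in MEFD3min and had 8.38 in MEFD3plu, 17.9-fold higher than in untreated cells (4.12 ± 0.31), and it was 7.39-fold higher at day 5 (2.83 ± 0.32). Exons on the other strand cover 12.03% of its exon bases. Mmp23, a short membrane-bound relative, was 2.63-fold lower at day 3. At day 5 it did not pass (log2 fold change 0.52, edgeR adjusted p = 0.0762), but did so as higher without the filter on low counts (adjusted p = 0.0369), in a fit of only the compared samples (0.0486) and without replicate 1 of MEFD3plu (0.0462).

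Of the TIMPs, Timp1, Timp2 and Timp3 were lower at day 3, and of these Timp2 alone was also lower at day 5. Timp1, which inhibits most secreted Mmp enzymes, had 96.6, 98.9 and 115 CPM in MEFD0, 90.9, 78.6 and 121 in MEFD3min, 23.1, 24.6 and 30.4 in MEFD3plu, and at day 5 137, 125 and 164 in MEFD5min against 112, 131 and 123 in MEFD5plu. MEFD3plu was below all other conditions, and at day 5 the groups overlapped. The log2 fold change was -1.89 ± 0.15 at day 3 (3.72-fold lower, edgeR adjusted p = 1.1e-08) and -0.22 ± 0.14 at day 5, which did not pass.

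Timp3, which is bound to the matrix and also inhibits ADAM and ADAMTS enzymes, was low in MEFD0 and highest in MEFD3min. It had 52.0, 57.4 and 49.5 CPM in MEFD0, 188, 223 and 205 in MEFD3min, 66.8, 75.5 and 67.4 in MEFD3plu, and at day 5 137, 80.7 and 124 in MEFD5min against 150.3, 117 and 137 in MEFD5plu. It was 2.94-fold lower with treatment at day 3 (log2 fold change -1.55 ± 0.15, edgeR adjusted p = 1.2e-07) and had 0.24 ± 0.15 at day 5, with overlapping groups. Exons of Syn3 on the other strand cover 21.3% of its exon bases.

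Timp2, which takes part in the activation of Mmp2, was the most abundant TIMP per length over all samples, although at day 5 Timp1 was above it, at 159.8 against 99.0 RPKM in untreated and 138 against 76.8 in treated cells. It had 698, 719 and 607 CPM in MEFD0, 715, 947 and 749 in MEFD3min, 521, 559.7 and 513 in MEFD3plu, and at day 5 415, 387 and 356 in MEFD5min against 325, 289 and 285 in MEFD5plu. Its fold change at day 3 was the smallest of the 4, 1.51-fold lower (log2 fold change -0.60 ± 0.11, edgeR adjusted p = 0.00015), and it was 1.29-fold lower at day 5 (-0.37 ± 0.11, edgeR adjusted p = 0.0093).

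Timp4, known for its expression in heart and fat tissue, was near 0 in every sample without treatment. Since it became a member only through the 6 treated samples, its values are given as a description. It had 0, 0.0281 and 0.101 CPM in MEFD3min and 0.955, 0.815 and 1.41 in MEFD3plu, then 0, 0.0389 and 0 in MEFD5min and 0.715, 1.06 and 1.15 in MEFD5plu. This was 104 against 4 counts at day 3 (24.7-fold higher) and 95 against 1 at day 5, a ratio of 95.7 with a 95% counting interval from 16.8 to 3819. The log2 fold change at day 3 was 4.56 and became 5.85 without replicate 4 of MEFD3min, which held 3 of the 4 counts. Timp4 stayed far below the other TIMPs at every condition.

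**Figure D3:**
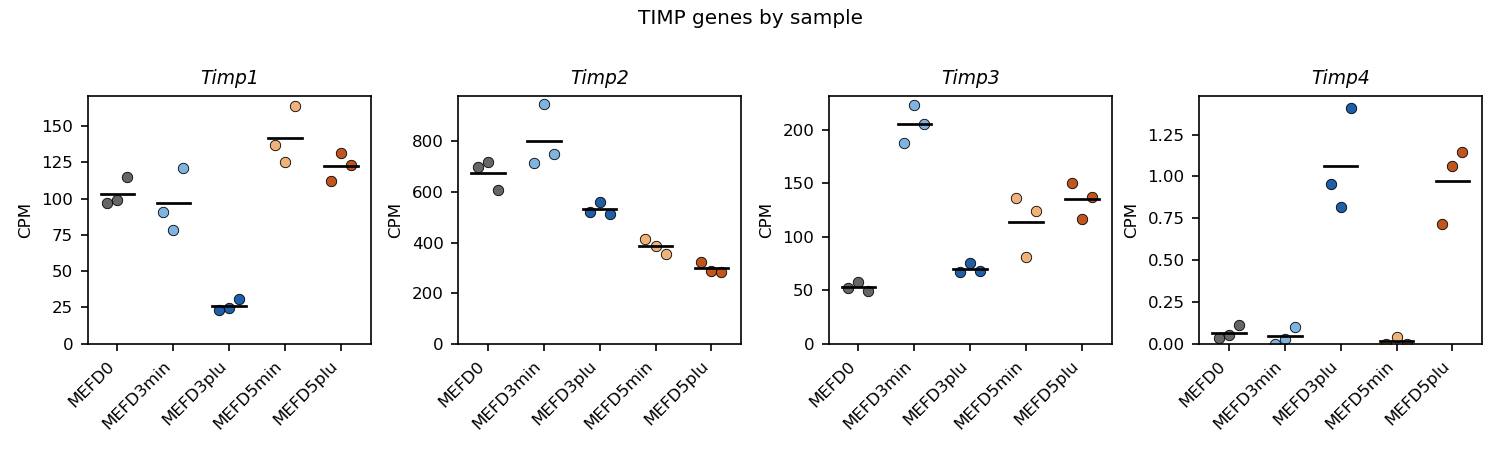
CPM of the 4 TIMP genes, 1 point per sample and a bar at the mean of the 3 samples of each condition, on linear axes from 0 that differ between genes. Timp1 and Timp3 are low in MEFD3plu and overlap between treated and untreated samples at day 5, Timp2 is lower in treated samples at both days, and Timp4 is near 0 without treatment and at 0.715 to 1.41 CPM with it.

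Levels per exon length (RPKM, computed here from the counts and annotated exon lengths) allow genes to be set against each other. Timp2 was the highest member in MEFD0 (173 RPKM) and in MEFD3plu (136), and Mmp3 was the highest in MEFD3min (424, or 32.0% of the members' sum), in MEFD5min (735, or 53.4%) and in MEFD5plu (245). The summed RPKM of the Mmp genes was divided by that of the TIMP genes in each sample. The ratio was 0.393 to 0.401 in MEFD0, 1.79 to 2.13 in MEFD3min, 0.945 to 0.984 in MEFD3plu, and at day 5 3.00 to 3.25 in MEFD5min against 1.62 to 1.65 in MEFD5plu, so that no condition overlapped with another. At day 3 the mean sum of the Mmp genes was 675 RPKM in untreated and 168 in treated cells, and that of the TIMPs 341 and 175. At day 5 the sums were 862 and 377 for Mmp genes, untreated and treated, and 273 and 231 for TIMPs. The order of treated and untreated cells rested on Mmp3. Without it, a choice made after seeing the data, the ratio was 0.692 to 0.792 in MEFD3min and 0.911 to 0.936 in MEFD3plu, and 0.457 to 0.480 in MEFD5min and 0.529 to 0.612 in MEFD5plu, so that treated samples were above untreated ones at both days. The ratio is one of transcripts and says nothing of enzyme activity.

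**Figure D4:**
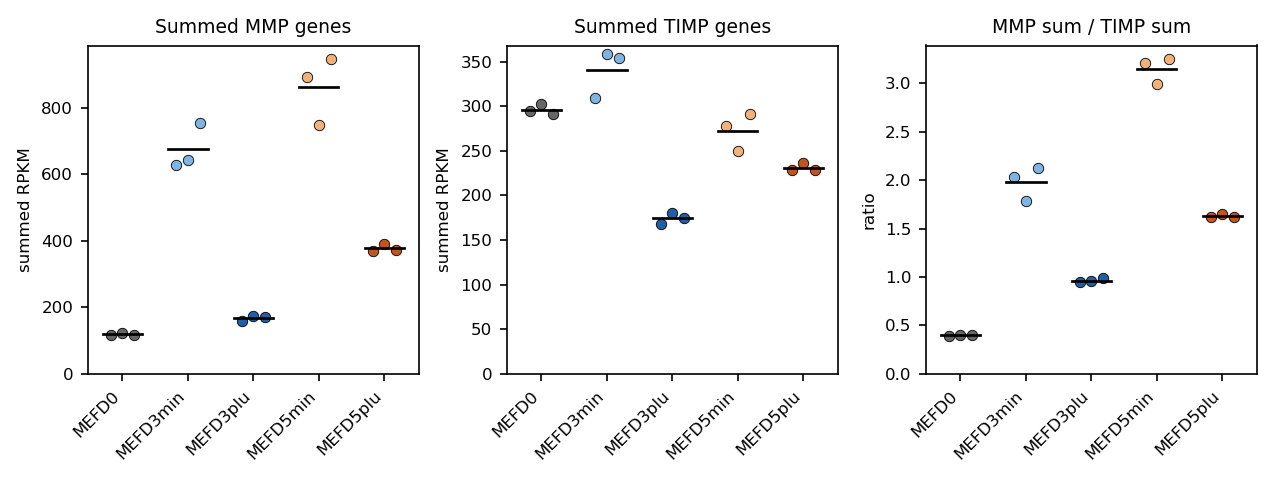
Summed RPKM of the 16 Mmp genes, of the 4 TIMP genes and the ratio of both, 1 point per sample and a bar at the mean of the 3 samples of each condition. The ratio is lowest in MEFD0 (mean 0.398) and highest in MEFD5min (mean 3.15), and at each day the treated samples lie below the untreated ones, an order that turns at both days when Mmp3 is left out of the sum.

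Of the 5 ADAMTS proteases that cut proteoglycans, 4 were higher at day 3 (Adamts1, Adamts5, Adamts9 and Adamts15) and 3 at day 5, without Adamts9. Of all genes tested, 28.0% were higher at day 3 and 26.3% at day 5, and no test of this group was made. Adamts1, which cuts versican, went from means of 211 CPM in MEFD3min to 332 in MEFD3plu and from 87.8 in MEFD5min to 163 in MEFD5plu, with log2 fold changes of 0.65 ± 0.15 and 0.89 ± 0.15. Adamts5, a strong aggrecanase, was 2.21-fold higher at day 3 and 2.97-fold higher at day 5. Adamts15 had 2 counts over the samples of MEFD0 and 5.89, 7.89 and 3.87 CPM in MEFD3min, and was 3.05-fold higher at day 3 and 4.11-fold higher at day 5 in treated cells. Adamts4, the other well known aggrecanase, was the exception, with 29.0, 33.8 and 27.7 CPM in MEFD3min, 5.66, 5.58 and 5.39 in MEFD3plu and overlapping values at day 5. It was 5.45-fold lower at day 3 (log2 fold change -2.45 ± 0.16, edgeR adjusted p = 6.1e-10) and -0.06 ± 0.15 at day 5.

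Versican itself (Vcan), the main proteoglycan substrate expressed here, was higher with treatment at each day, with log2 fold changes of 1.42 and 1.55, and means of 908 and 2434 CPM in MEFD3min and MEFD3plu. Of 9 tested genes in the list of ADAMTS substrates and hyaluronan synthases, 4 were higher and 2 lower at day 3 (Fbn1 and Fbn2, which encode fibrillins), and 3 were higher and 1 lower at day 5. Over all genes tested, 28.0% were higher and 28.0% lower at day 3, and 26.3% higher and 24.2% lower at day 5. Aggrecan (Acan) was at 0.0114 CPM or less in every condition.

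The pair that cuts cartilage oligomeric matrix protein diverged. Adamts12 had 107, 120.0 and 100.4 CPM in MEFD3min, 451, 483 and 434 in MEFD3plu, and at day 5 49.2, 31.1 and 40.4 in MEFD5min against 141, 119 and 136 in MEFD5plu. It was 4.18-fold higher with treatment at day 3 and 3.28-fold higher at day 5 (log2 fold changes 2.06 ± 0.13 and 1.71 ± 0.13, edgeR adjusted p = 5.7e-10 and 1.7e-08), and MEFD0 was far lower at a mean of 9.59 CPM. Adamts7 was 2.42-fold lower at day 3 and 3.05-fold lower at day 5. The procollagen N-proteinases, which remove the amino-terminal end of fibrillar procollagens, diverged as well: Adamts2 was 1.49-fold higher at day 3 and 2.51-fold higher at day 5, whereas Adamts14 was 3.51-fold and 1.68-fold lower. Adamts6 and Adamts10, which act on the microfibril system, were 3.15-fold and 1.74-fold lower at day 3, and neither passed at day 5.

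Of the ADAM sheddases, Adam12, whose long and short forms are known from fusing muscle and from growing fat and connective tissue, had the largest increase. It had 20.6, 18.9 and 15.6 CPM in MEFD0, 6.49, 9.66 and 6.56 in MEFD3min, 210.5, 221 and 194 in MEFD3plu, and at day 5 32.8, 34.3 and 28.9 in MEFD5min against 79.5, 64.1 and 68.9 in MEFD5plu. Untreated cells at day 3 were the lowest condition and treated cells at day 3 the highest. The gene was 27.5-fold higher at day 3 and 2.21-fold higher at day 5 (log2 fold changes 4.78 ± 0.16 and 1.15 ± 0.13, edgeR adjusted p = 1.3e-13 and 2.3e-06). Adam10 and Adam17, the main sheddases of Notch and of TNF, changed little: Adam10 had log2 fold changes of 0.14 ± 0.08 and 0.02 ± 0.08 and did not pass at either day, and Adam17 had -0.18 ± 0.08, which did not pass, and 0.22 ± 0.08, which did (edgeR adjusted p = 0.0245). Adam9, the most abundant ADAM per length, was 1.39-fold higher at day 3 and did not pass at day 5, while Adam8 was 2.21-fold and 2.12-fold lower and Adam19 1.43-fold and 1.58-fold lower.

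Adam23, which lacks a catalytic site and acts in adhesion, was higher at both days. It had 6.72, 4.80 and 4.94 CPM in MEFD0, 5.61, 8.68 and 7.10 in MEFD3min, 70.8, 68.0 and 68.4 in MEFD3plu, and at day 5 9.24, 6.50 and 8.30 in MEFD5min against 38.8, 36.9 and 37.8 in MEFD5plu. It was 9.69-fold higher at day 3 and 4.72-fold higher at day 5 (log2 fold changes 3.27 ± 0.15 and 2.23 ± 0.15, edgeR adjusted p = 1.1e-11 and 3.0e-09). The 3 conditions without treatment stayed under 10 CPM. Adam5, best known from testis, was 6.32-fold lower at day 3 and 2.38-fold higher at day 5, at no more than 3.48 CPM in any sample.

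**Figure D5:**
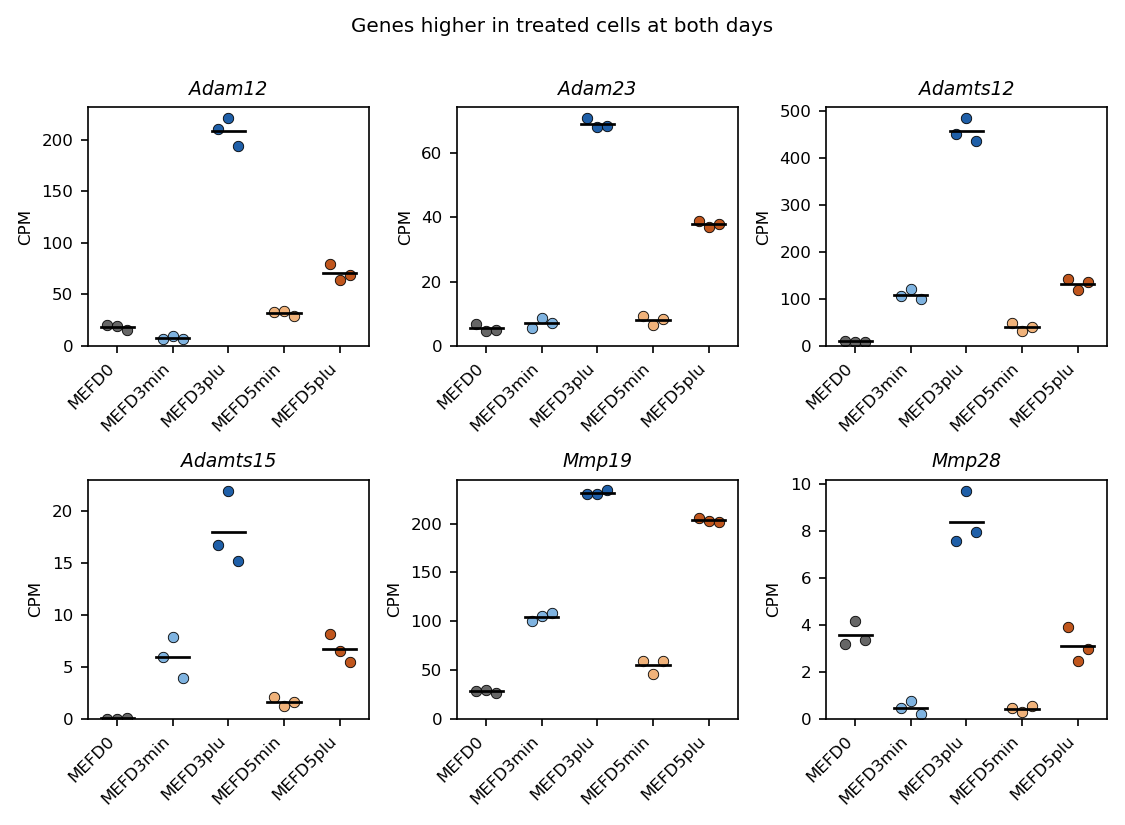
CPM of 6 genes that were higher in treated cells at both days, 1 point per sample and a bar at the mean of the 3 samples of each condition, on linear axes from 0 that differ between genes. Adam12, Adam23, Adamts12, Adamts15 and Mmp28 are higher in MEFD3plu than in MEFD5plu, and Mmp19 has 230.2 to 234 CPM in MEFD3plu and 201 to 205 in MEFD5plu.

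The ADAMTS-like proteins have no protease domain and bind to the matrix. Adamtsl5, the highest of them per length, had means of 42.7 CPM in MEFD3min and 31.5 in MEFD3plu, and its log2 fold change of -0.44 ± 0.16 (edgeR adjusted p = 0.0271) did not pass without replicate 3 of MEFD3min (adjusted p = 0.205), replicate 1 of MEFD3plu (0.104) or replicate 4 of MEFD3plu (0.107), nor in a fit of only the compared samples (0.0832). Adamtsl3 was 7.11-fold lower at day 3 at a low level (26 against 189 counts). The members not described singly were Adam1a, Adam4, Adam11, Adam15, Adam22, Adam32, Adam33, Adamtsl4, Adamts17 and Adamts19. At day 3 Adam11, Adam32 and Adamts19 were higher and Adam33 was lower, of which Adamts19 is a member through MEFD3plu alone, and at day 5 their edgeR adjusted p was 0.0822 or above.

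The untreated cells also changed over time. In MEFD3min/MEFD0, 32 members were higher and 5 lower, against 31.4% and 28.6% of all genes, and 13 of the 16 Mmp genes were higher. These include Mmp8, a member mainly through MEFD3min, whose call is no support. In MEFD5min/MEFD0, 30 were higher and 9 lower, against 24.5% and 21.9%. Mmp3 was 8.38-fold higher at day 3 and 14.5-fold higher at day 5 than in MEFD0, Mmp13 was 7.49-fold and 12.8-fold higher, and Adamts4 was 34.7-fold and 15.7-fold higher. Between the untreated days (MEFD5min/MEFD3min), 8 members were higher and 26 lower, against 21.3% and 21.5%: Mmp10 was 15.9-fold higher, while Mmp14 was 3.69-fold and Timp2 2.08-fold lower. Scaled by total counts alone, 62.7% instead of 49.7% of all genes that passed between the untreated days were higher, and 9 members were higher and 23 lower. The same scaling shifted the median of all genes by -0.12 (log2) in MEFD3min/MEFD0. These comparisons share the samples of MEFD0 or MEFD3min with each other and with the comparison of treated cells.

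Between the treated days (MEFD5plu/MEFD3plu), 17 members were higher and 24 lower, against 33.8% and 29.2% of all genes. The genes that had been lowest with treatment were higher in MEFD5plu: Mmp3 was 35.1-fold, Mmp13 53.5-fold, Mmp12 17.3-fold and Mmp9 11.4-fold higher, and Timp1 was 4.69-fold higher. Mmp1b went from 0 to 145 counts, at least 47.8-fold higher against the floor. Among those that had been higher with treatment, Adam12 was 2.94-fold, Adamts12 3.46-fold and Adam23 1.83-fold lower in MEFD5plu, whereas Mmp19 did not pass (log2 fold change -0.19 ± 0.08). MEFD5plu differed from MEFD3plu in both age and medium, which cannot be told apart. The samples of MEFD3plu also enter the comparison at day 3. For genes picked by their change there, some opposite movement between the treated days is therefore built in.

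Other proteases of the matrix were counted from fixed lists. Plasmin activates Mmp precursors, and of the genes that produce it Plau, Plat and Plaur, which encode urokinase, tissue activator and the urokinase receptor, were all lower at day 3. Plau had means of 2433 CPM in MEFD3min, 378.5 in MEFD3plu, and at day 5 2021 in MEFD5min against 1383 in MEFD5plu, with log2 fold changes of -2.69 and -0.55. At day 5 Plau and Plaur were lower and Plat was higher. Cathepsins are mostly lysosomal proteases, some of which are secreted: of 11 genes, with cystatin C (Cst3), 10 were lower at day 3 and Cst3 did not pass (log2 fold change 0.19), and 5 were higher and 1 lower at day 5. Ctsk, the collagen-cutting cathepsin, had means of 67.8 and 28.1 CPM at day 3 and 35.8 and 62.7 at day 5, untreated and treated. All 11 were higher in MEFD3min than in MEFD0, where 31.4% of all genes tested were higher. Shares over all genes tested were 28.0% lower and 28.0% higher at day 3, and 24.2% lower and 26.3% higher at day 5.

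Among regulators, Reck, a membrane-anchored inhibitor of Mmp enzymes, was lower at day 3 (log2 fold change -0.34) and did not pass at day 5. Furin, which cuts the precursors of Mmp14 and of many ADAM and ADAMTS enzymes, was higher at day 3 (0.74) and lower at day 5 (-0.91). Of the 7 tested genes of this list, 2 were higher and 3 lower at day 3 and 4 were lower at day 5. In the list of other extracellular proteases, 8 of 12 were lower and 2 higher at day 3, and 5 were lower and 3 higher at day 5. The exceptions at day 3 were Pappa and Htra3: Pappa, which cuts binding proteins of insulin-like growth factor, went from means of 16.4 to 102 CPM and Htra3, a serine protease, from 1.14 to 19.4. Of the 5 tested iRhoms and tetraspanins, which guide Adam10 and Adam17, Tspan5 and Tspan15 were higher at day 3 and Tspan15 at day 5. Beside these lists, 28.0% of all genes tested were lower and 28.0% higher at day 3. At day 5, 24.2% of all genes tested were lower and 26.3% higher.

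Markers of other cell types that carry such proteases were also measured. The osteoblast markers summed to 84.4 to 91.6 CPM in MEFD3min and to 30.6 to 34.6 in MEFD3plu. At day 5 they summed to 77.9 to 91.9 CPM in MEFD5min and to 61.5 to 68.9 in MEFD5plu. Of 4 tested osteoblast markers, 3 were lower and 1 higher at each day, but not the same genes. Runx2 was higher at day 3 and lower at day 5, and Phex was lower at day 3 and higher at day 5. Sp7 and Dmp1 were lower at both days, and Dmp1 went from means of 9.50 to 0.572 CPM at day 3. Of 3 tested chondrocyte markers, 2 were higher at both days (Col11a2 and Comp) and Sox9 was lower at day 5. Of 3 tested endothelial markers, Cdh5 was lower at both days, and of the 6 epithelial markers only Krt8 could be tested. At means under 1 CPM in every condition Krt8 was lower at day 3 and higher at day 5 (log2 fold changes -3.58 and 2.97, edgeR adjusted p = 0.00386 and 0.00162). It had 1.16, 0.419 and 0.422 CPM in MEFD5plu and at most 0.439 in another sample, replicate 1 of MEFD3min. Krt8 was thus testable mainly through MEFD5plu, and its call at day 5 is no support. Of the 5 tested muscle markers, 2 were higher at both days (Myh11 and Des), and 1 was lower at day 3 and 3 at day 5. Acta2, smooth muscle actin, which myofibroblasts also make, was lower at both days, with means of 88.3 and 14.5 CPM at day 3 and 461 and 117 at day 5, untreated and treated. Shares over all genes tested were 28.0% lower and 28.0% higher at day 3, and 24.2% lower and 26.3% higher at day 5. The part of these cell types in the values of the proteases was not tested.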

How the data were processed

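RNA of 15 MEF samples was sequenced, and the authors deposited raw counts per gene for each sample. The submitters' processing notes name TopHat2 (2.1.0), HTSeq and DESeq2 and the build GRCm38/mm10; the study's methods name DESeq2 for the raw counts and this build as the reference, and the strand setting is not given in the sources used here. The methods name a stranded library kit, and the labels one that does not mark strand. Of 46603 gene IDs, 46091 had a symbol in GENCODE M21 and 512 had none. The members and lists were chosen with earlier results of these data known.

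Counts were tested with edgeR 4.0.16 in R 4.3.3: genes passing filterByExpr (15997, with all 51 members), TMM scaling, 1 quasi-likelihood fit of all 15 samples over the 5 conditions, 7 comparisons, and Benjamini-Hochberg adjustment over all genes tested. A member was called at an adjusted p under 0.05. Standard errors (±) are the absolute log2 fold change divided by the square root of the F statistic. They use the spread estimated over all 15 samples and are least certain for genes of few counts. An exact permutation test of 3 against 3 samples cannot go below 0.10 and was not used. CPM was computed with TMM-scaled totals, and RPKM from these and the union of annotated exons. Folds against a group at 0 counts are bounds against 3 counts over the group, and intervals (95%) and floors cover counting error only. Median totals per condition were 31812495 to 35420674, and 3 counts in a sample were 0.0805 to 0.125 CPM. Replicates correlated at r = 0.977 to 0.997 across 11872 genes (log2 CPM), and each pair differed by more than sampling noise. Same-numbered treated and untreated samples deviated together at day 3 (r = 0.143, 0.228 and 0.36), which pairs them there from the data. The labels do not say what a number shares. At day 5 same-numbered treated and untreated samples did not (0.0422, -0.00453 and 0.0538). Those of MEFD0 and MEFD3min also deviated together, more weakly (0.0837, 0.132 and 0.18). The main fit has no block for the number, and with one 38 in place of 37 members were called in MEFD3min/MEFD0.

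Named with values were the 4 TIMPs, members called at either day that changed at least 2-fold and averaged a log2 CPM of 1 or more, and the highest member per length of each role group (31 in all). Values in each sample were given for the TIMPs and the 4 largest changes at day 3, day 5 and in the interaction among members that averaged a log2 CPM of 3 or more; other members given by sample, and the values given for Adam10, Adam17, Adam19, Adam32, Adam33, Adamtsl3, Mmp1b, Mmp8, Mmp9, Mmp11 and Mmp17, which the rule does not name, were chosen after their values were seen. Promoter windows came from RefSeq (GRCm38.p6) for 32 members. The alternatives were DESeq2 1.42.0, other scalings, filters and thresholds, the replicate block, fewer samples in the fit and each sample left out. On simulated counts for 15571 genes, the day 3 comparison recovered 83 of 105 genes changed 2-fold and 82 of 95 changed 4-fold, with 7 false calls. The simulation changed 200 genes in MEFD3plu alone, with otherwise equal means in all conditions and independent replicates. In the data 56.1% of all genes passed at day 3, so these figures do not give the error rate of the real comparison. An item of the lists is not reported here.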

Additional observations from a re-analysis of the deposited data

Results flagged for a closer look

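The effect of treatment differed between day 3 and day 5, by edgeR's test of the difference (log2 fold change at day 3 minus that at day 5, adjusted over all genes tested), in 30 of the 51 members, against 48.5% of all genes. Among the matrix metalloproteinases the difference was -5.19 for Mmp12, -4.92 for Mmp13, -4.34 for Mmp3, -4.11 for Mmp10, -1.90 for Mmp23, -1.78 for Mmp15, -1.32 for Mmp14, -0.99 for Mmp16 and -0.75 for Mmp19, and 1.29 for Mmp28. Of the first 4, each was lower in treated cells at both days and by more at day 3. Mmp19 was higher at both days and by more at day 5. Outside the rule on named genes it was -4.96 for Mmp8, -3.46 for Mmp9 and 4.21 for Mmp17, and Mmp1b also passed as lower, with a difference of -6.93 that depends on the prior count because it had 0 counts in MEFD3plu.

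For the inhibitors it was -1.68 for Timp1 and -1.80 for Timp3, both lower at day 3 and not past the threshold at day 5. In the ADAMTS genes it was -2.38 for Adamts4, -1.69 for Adamts6, -1.07 for Adamts14, -0.76 for Adamts2, -0.67 for Adamts10 and -0.62 for Adamtsl5. In the ADAM genes it was 3.63 for Adam12, 1.04 for Adam23, 0.57 for Adam9 and -3.89 for Adam5, the last of which was lower at day 3 and higher at day 5. Outside that rule it was -3.67 for Adam33, -2.47 for Adamtsl3, -0.40 for Adam17 and 1.59 for Adam32. The adjusted p ranged from 9.17e-11 for Mmp3 to 0.0343 for Adamtsl5. The difference of Mmp10 rests on 1 count in MEFD3plu and was -6.00 without the sample that holds it, replicate 4. That of Adamtsl5 missed the threshold in a fit of only the compared samples (adjusted p = 0.0622), with total counts alone (0.153) and when any 1 of 6 samples was left out (0.0699 to 0.0989). That of Mmp28 (adjusted p = 0.0328) missed the threshold when any 1 of 7 samples was left out, at 0.0561 to 0.108.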

How the results depend on the processing

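The number of members called stayed within 1.5 times its value under DESeq2, DESeq2's size factors, total counts, no filter, a threshold of 0.01 and fits of only the compared samples. With at least 10 counts in every sample only 32 members could be tested, and 27 were called at day 3, 15 at day 5, 18 in the interaction and 26 in MEFD5plu/MEFD3plu. With at least a 2-fold change, 22 were called in MEFD5min/MEFD0 and 18 in MEFD5min/MEFD3min. When each sample in turn was dropped, 40 to 42 were called at day 3, 23 to 26 at day 5 and 28 to 31 in the interaction. With the replicate block, which pairs same-numbered samples, 42 were called at day 3, 25 at day 5 and 31 in the interaction, and among the named members the block changed 1 call, that of Adamts5 in the interaction (-0.43, edgeR adjusted p = 0.0353).

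Of 2025 refits of the named members' log2 fold changes, 1974 kept direction and side of the threshold, 21 lost and 14 gained a call, and 16 had the other sign without a call in either fit. These 16 concern 6 values near 0, those of Mmp2, Mmp14, Adamts4 and Adamts6 at day 5, Mmp15 at day 3 and Adam8 in the interaction. With total counts alone, Timp1 (-0.38, edgeR adjusted p = 0.0188), Adam9 and Mmp16 passed at day 5; Timp3 did so without replicate 1 of MEFD5min (0.39, 0.0461). Without Mmp3, an alternative added after seeing the data, the Mmp/TIMP ratio of treated over untreated cells was 1.25 at day 3 and 1.22 at day 5, in place of 0.484 and 0.517. Genes of few counts moved most: without replicate 4 of MEFD3plu, which holds its only count there, Mmp10 was at -9.28 at day 3, and Timp4 was at 8.03 at day 5 without replicate 3 of MEFD5min and at 5.85 at day 3 without replicate 4 of MEFD3min. Differences between groups that are both under about 0.1 CPM were not detectable at this depth.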
